A study of Mus musculus with 6 samples.

Results

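RNA markers of glutamatergic neurons, 9 genes that are used in the cerebral cortex and the thalamus and that would report neighbouring tissue in a dissected striatum, were followed in Shank3 TG and WT mice. The members are the rows of the deposited table whose Ensembl identifier carries one of the symbols Slc17a7, Slc17a6, Tbr1, Neurod1, Neurod2, Neurod6, Rorb, Fezf2 and Cux2 in GENCODE M21, and all 9 were found among the 46078 genes listed. The libraries are 3 from mice that carry an EGFP-tagged Shank3 transgene beside their own Shank3 (TG) and 3 from WT mice, all of them males of 12 weeks on the C57BL/6J background, with 1 library per mouse and no treatment. The promoter that drives the transgene is not given in the sources used here. Each value is a normalized read count, which is the number of reads on a gene divided by the size factor of its library.

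Projection neurons of the cortex and most relay neurons of the thalamus release glutamate, which vesicular transporters load into synaptic vesicles. Some of them send axons that end on the spiny neurons of the striatum, which are themselves GABAergic and make up most striatal neurons. The cell bodies, and with them most of the RNA, of such glutamatergic neurons lie outside the striatum, where the overlying cortex is parted from it only by white matter. Of the members, Slc17a7 and Slc17a6 encode the vesicular glutamate transporters VGLUT1 and VGLUT2, used mainly by cortical and by thalamic neurons, respectively. Tbr1, Neurod1, Neurod2 and Neurod6 encode transcription factors of the glutamatergic lineage, Tbr1 from the T-box family and the others from the basic helix-loop-helix family. Rorb, Fezf2 and Cux2 encode transcription factors that mark layers of the cortex. Cux2 is used in the upper layers, Rorb in layer IV and in parts of the thalamus, and Fezf2 in the deep layers, as is Tbr1.

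The promoter letters of 4 members are shown because they form 2 pairs of relatives, the transporters and 2 of the NEUROD genes, whose RNA levels are given below. Each is the run of 250 bases before the first start site listed for the gene by RefSeq on GRCm38.p6, written 5′ to 3′, with capitals for each E-box (CANNTG), the motif that basic helix-loop-helix factors such as the NEUROD proteins bind.
Slc17a7 (chr7:45163671-45163920, plus strand): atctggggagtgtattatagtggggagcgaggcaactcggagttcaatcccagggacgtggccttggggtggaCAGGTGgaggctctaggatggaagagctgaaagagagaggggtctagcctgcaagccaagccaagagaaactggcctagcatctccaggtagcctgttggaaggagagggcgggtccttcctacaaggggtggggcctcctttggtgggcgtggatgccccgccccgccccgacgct
Slc17a6 (chr7:51621580-51621829, plus strand): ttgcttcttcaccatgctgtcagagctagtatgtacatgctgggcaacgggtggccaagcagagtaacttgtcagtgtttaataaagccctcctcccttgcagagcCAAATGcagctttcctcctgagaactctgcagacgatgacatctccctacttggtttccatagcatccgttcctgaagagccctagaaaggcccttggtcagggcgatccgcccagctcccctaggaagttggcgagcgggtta
Neurod2 (chr11:98329646-98329895, minus strand): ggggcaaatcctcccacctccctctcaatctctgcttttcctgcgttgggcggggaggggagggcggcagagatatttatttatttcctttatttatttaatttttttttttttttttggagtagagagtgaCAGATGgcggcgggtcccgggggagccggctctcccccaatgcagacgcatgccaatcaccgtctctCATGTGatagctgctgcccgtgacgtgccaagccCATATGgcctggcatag
Neurod6 (chr6:55681264-55681513, minus strand): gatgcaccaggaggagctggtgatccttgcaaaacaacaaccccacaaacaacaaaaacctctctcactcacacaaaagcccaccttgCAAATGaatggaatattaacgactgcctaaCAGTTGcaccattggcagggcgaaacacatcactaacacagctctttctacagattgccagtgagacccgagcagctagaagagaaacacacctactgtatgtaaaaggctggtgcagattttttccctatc
The Neurod2 window held 3 E-boxes, the Neurod6 window 2 and each transporter window 1. An E-box on either strand was found in 66.2% of the 32851 promoter windows of the same length, and the mean number was 1.16, so its presence does not set these genes apart. The narrower forms CAGATG, its reverse complement CATCTG and CAGCTG, which are a part of the E-boxes above, were found in 25.5% of all windows and once in the Neurod2 window, at -118 from the start site. All 9 members had a promoter entry, and the windows of Fezf2 and of the first start site of Rorb held no E-box. RefSeq lists a second start site for Slc17a6, Cux2 and Rorb, and the window before it held 2 E-boxes in each of these genes. In Slc17a6 and in Cux2, 1 of them was of a narrower form.

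Reads on genes numbered between 27689589 and 36647626 per library. Shank3 was checked first and was at 29891, 28308 and 26044 normalized read counts in the 3 TG libraries against 13807, 12918 and 13865 in the 3 WT libraries (adjusted P = 7.04e-05 by limma), so each library matched its genotype label. The tissue label was checked with 14 markers of striatal spiny neurons, and all 14 were present in every library. Choroid plexus markers stood far apart in TG replicate 1, where the 9 of them summed to 15350 normalized read counts, against 635 to 1882 in the other TG libraries and 548 to 891 in the WT libraries. Values without that library are given beside the results that it carries.

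The markers differed more than 100-fold in level, which was compared per kb of exon because the genes differ in length. Slc17a7 (ENSMUSG00000070570; chromosome 7, 45163949 to 45176142, plus strand) led with a mean over the 6 libraries of 4854 normalized read counts per kb, above 98.6% of the genes tested. Neurod6 (ENSMUSG00000037984; chromosome 6, 55677822 to 55681263, minus strand) had 581 per kb, Tbr1 (ENSMUSG00000035033; chromosome 2, 61802930 to 61814114, plus strand) 526 per kb and Neurod2 (ENSMUSG00000038255; chromosome 11, 98325415 to 98329648, minus strand) 481 per kb. These 3 transcription factors of the cortical lineage thus lay close together, and the ranges of neighbours in this order overlapped over the libraries. Within a library, Neurod6 was above Tbr1 in 6 of 6 and Tbr1 above Neurod2 in 5 of 6.

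The layer markers came next. Fezf2 (ENSMUSG00000021743; chromosome 14, 12342094 to 12348189, minus strand) had 170 normalized read counts per kb and Cux2 (ENSMUSG00000042589; chromosome 5, 121856366 to 122050102, minus strand) had 136 per kb, with overlapping ranges and Fezf2 higher in 5 of 6 libraries. Rorb (ENSMUSG00000036192; chromosome 19, 18930605 to 19111196, minus strand) had 71.4 per kb, and its range did not reach that of Cux2. Slc17a6 (ENSMUSG00000030500; chromosome 7, 51622006 to 51671119, plus strand) followed at 50.5 per kb and Neurod1 (ENSMUSG00000034701; chromosome 2, 79452521 to 79456751, minus strand) at 29.7 per kb, above 24.2% of the genes tested, with no overlap between the ranges of Rorb, Slc17a6 and Neurod1. The exons of Neurod1 share 201 bases with those of Cerkl on the same strand and 154 bases with Gm26755 on the opposite strand, and whether strand was used in counting is not given in the sources used here. No exon of the other members overlaps an exon of another annotated gene.

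**Figure D1:**
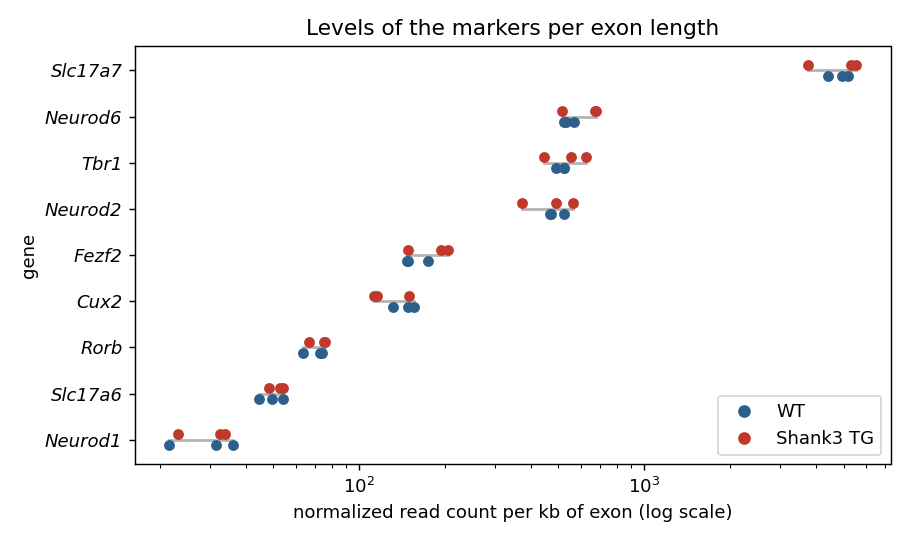
Levels of the 9 markers per kb of exon (normalized read count per kb, log scale), with 1 point per library (blue, WT; red, Shank3 TG) and a grey line from the lowest to the highest library. Slc17a7, at 4854 on average, lies far to the right of every other marker, and Neurod1, at 29.7, is the lowest.

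Slc17a7 was also set against Slc32a1, which encodes the vesicular transporter of GABA and is used by the striatal neurons themselves. Per kb of exon, Slc17a7 was 3.27, 2.13 and 3.63 times as high as Slc32a1 in TG replicates 1, 2 and 3 and 3.27, 2.94 and 2.50 times as high in WT replicates 1, 2 and 3. The RNA of the cortical glutamate transporter was thus above that of the GABA transporter in each of the 6 striatal libraries. Relative to Slc17a6, Slc17a7 had between 77.6 and 105 times the normalized read count, the lowest ratio being that of TG replicate 2. In bulk tissue, fewer cells of a type and less RNA per cell cannot be told apart, and which cells these reads came from was not tested.

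The comparison of the genotypes asks whether the RNA of these glutamatergic neurons differs between striata of Shank3 TG and WT mice. None of the 9 members was called at an adjusted P value under 0.05 by limma, against 0.00568% of the 17605 genes tested, which is Shank3 alone. At an unadjusted P value under 0.05 the number of members was also 0, against 4.31% of all genes (1.98% higher and 2.33% lower in TG mice). In 0 of 9 members did the values of the 3 TG mice lie apart from those of the 3 WT mice, against 10.1% of all genes. The log2 fold changes, taken on log2(normalized read count + 1), ran from -0.21 for Cux2 to 0.21 for Fezf2 with 6 members higher and 3 lower, and their median was 0.06, against -0.00 for all genes tested. On the recovered reads, edgeR, limma-voom and DESeq2 called 0 members as well, with 0, 0 and 2 members at an unadjusted P value under 0.05. Those by DESeq2, against 2.45% of all genes, were Neurod6 with a log2 fold change of 0.20 and Cux2 with -0.20, in opposite directions.

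**Figure D2:**
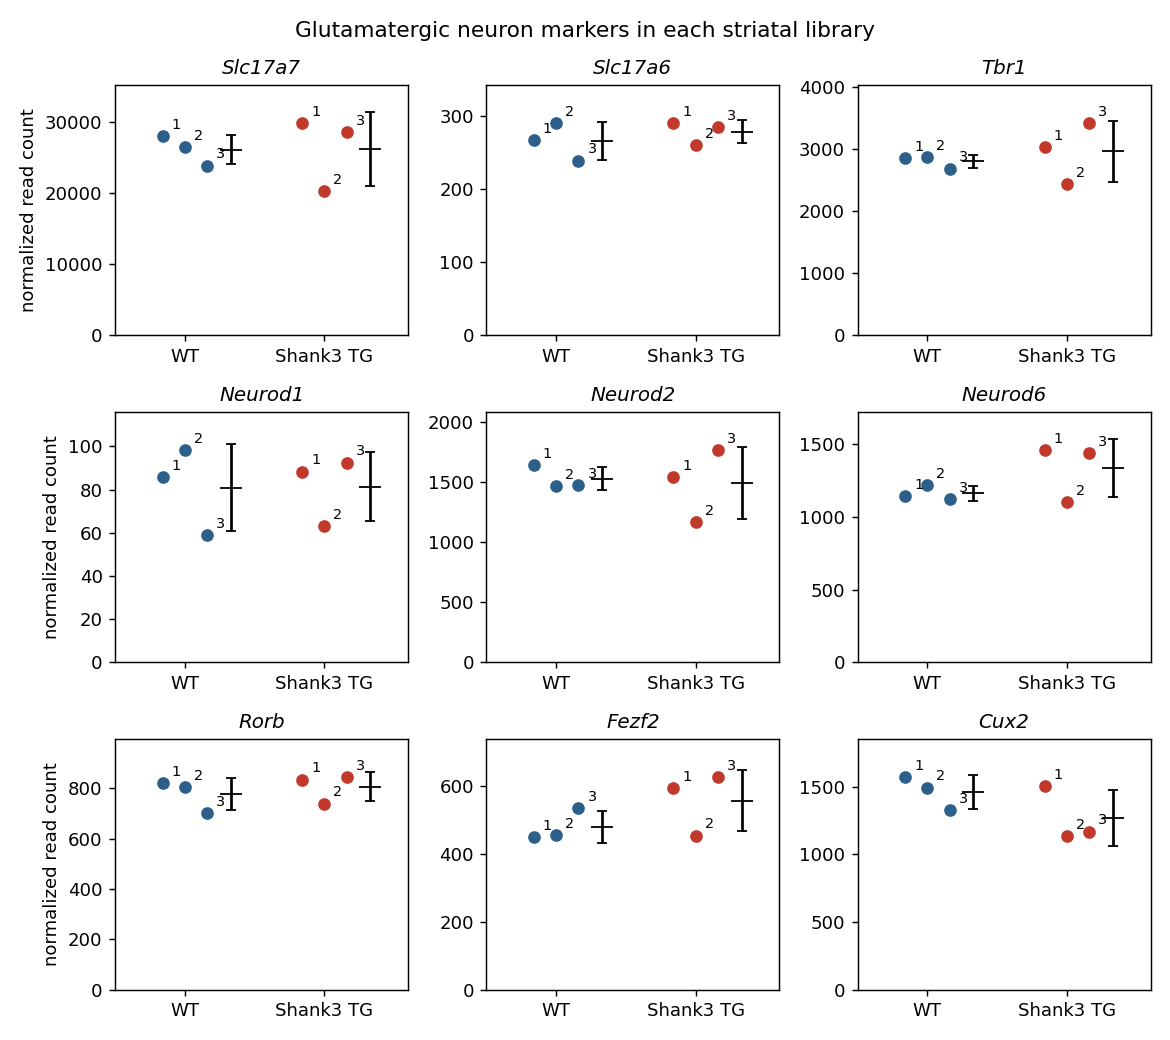
Normalized read counts of each marker in each library, with numbers for the replicates (blue, WT; red, Shank3 TG) and black bars for the mean ± SD of the 3 mice. In every panel TG replicate 2 is the lowest of the 3 TG libraries, and the TG and WT points overlap.

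The transporters come first. Slc17a7 had 29848, 20237 and 28555 normalized read counts in TG replicates 1, 2 and 3 and 28002, 26522 and 23867 in WT replicates 1, 2 and 3. TG replicate 2 was the lowest of all 6 libraries and TG replicate 1 the highest, so the TG range enclosed the WT range. The means, 26213 ± 5216 (SD, n = 3) for TG and 26131 ± 2095 (SD, n = 3) for WT, differed by 0.317% and gave a log2 fold change of -0.01 (95% interval -0.29 to 0.26). Slc17a6 had 291, 261 and 285 normalized read counts in the TG libraries, next to 268, 291 and 239.5 for WT. Its log2 fold change was 0.07 (95% interval -0.15 to 0.29), and its SD on the log2 scale was 0.08 between TG mice and 0.14 between WT mice. The thalamic transporter thus varied less between TG mice than the cortical one, whose SD there was 0.31. Between WT mice the order was reversed, with an SD of 0.12 for the cortical one.

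Among the lineage factors, Tbr1, which specifies deep-layer neurons that project to the thalamus, had 3042, 2438 and 3425 normalized read counts in the TG libraries, next to 2857, 2871 and 2691 for WT. The WT mice lay close together, and TG replicates 2 and 3 were the lowest and the highest of all libraries. Neurod2, which promotes neuronal differentiation and the maturation of cortical synapses, had 1541, 1170.1 and 1766 in the TG libraries, next to 1643, 1470.2 and 1479 for WT, again with TG replicates 2 and 3 at the ends. The log2 fold change was 0.07 for Tbr1 (95% interval -0.15 to 0.29). It was -0.06 for Neurod2 (95% interval -0.33 to 0.21).

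Neurod6, a factor of cortical and hippocampal pyramidal neurons, had 1459, 1105 and 1440.2 normalized read counts in the TG libraries, next to 1144, 1220.5 and 1122 for WT. TG replicates 1 and 3 were above all WT mice and TG replicate 2 was below them. The mean was 14.8% higher in TG mice, 1335 ± 199 (SD, n = 3) against 1162 ± 51.6 (SD, n = 3), a log2 fold change of 0.19 (95% interval -0.03 to 0.40, adjusted P = 0.971 by limma). Neurod1, which is needed for dentate granule neurons and is a weaker marker of mature cortex, had 88.4, 62.9 and 92.5 in the TG libraries, next to 85.8, 98.2 and 58.9 for WT. It rested on 56 to 105 reads per library, and its log2 fold change of 0.02 had the widest interval of the 9 members (-0.46 to 0.49).

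The layer markers took both ends of the range of fold changes. Fezf2, which specifies layer V neurons that project below the cortex, had 592, 453 and 624 normalized read counts in the TG libraries, next to 449, 454 and 533 for WT. TG replicates 1 and 3 were above all WT mice, whereas TG replicate 2 lay among them. The TG mean was 16.3% higher (log2 fold change 0.21, 95% interval -0.06 to 0.47, adjusted P = 0.971 by limma). Cux2, which controls dendrites and spines of upper-layer neurons, had 1507, 1133 and 1168 in the TG libraries, next to 1569, 1494.5 and 1326 for WT. Here TG replicates 2 and 3 were below all WT mice and TG replicate 1 was among them. The TG mean was 1269 ± 206 (SD, n = 3) and the WT mean 1463 ± 124 (SD, n = 3), with a log2 fold change of -0.21 (95% interval -0.44 to 0.02, adjusted P = 0.971 by limma). Rorb, which patterns layer IV, had 835, 739.6 and 843 in the TG libraries, next to 821, 804 and 703 for WT, a log2 fold change of 0.06 (95% interval -0.12 to 0.23).

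The two-sided exact permutation test of each member over the 6 mice gave P values between 0.3, for Fezf2 and Cux2, and 1, for Slc17a7, where 0.1 is the smallest that 3 mice against 3 allow. The intervals bound what these libraries could show. For Rorb, the narrowest, a log2 fold change above 0.23 or below -0.12 lay outside it, while that of Neurod1 spans nearly 1 log2 unit.

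**Figure D3:**
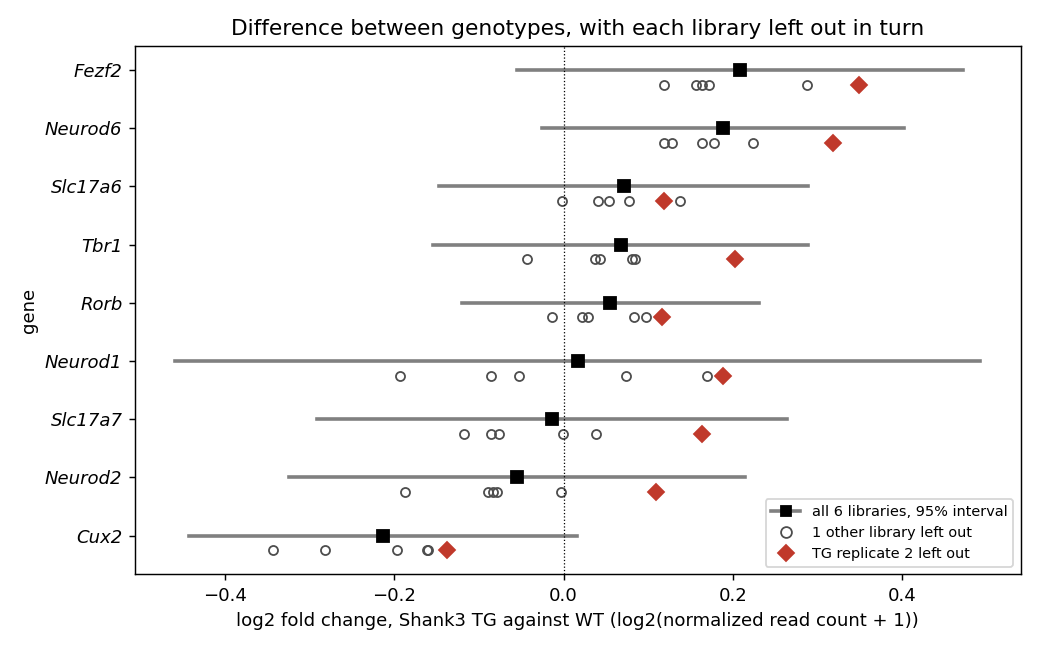
Log2 fold change of each marker between Shank3 TG and WT striatum, with its 95% interval by limma (black squares, grey lines) and the value with each library left out (circles; red diamond, without TG replicate 2). All 9 intervals include 0, and the red diamond is the highest of the values with 1 library left out in 8 markers, the exception being Slc17a6.

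The members shared a pattern over the libraries. TG replicate 2 was the lowest of the 3 TG libraries in 9 of 9 members, whereas it was so in 34.1% of all genes tested. It was the lowest of all 6 libraries in 5 of 9 members, Slc17a7, Tbr1, Neurod2, Neurod6 and Cux2. Among WT mice, WT replicate 3 was the lowest in 7 of 9 members, against 33.6% of all genes, and the exceptions were Neurod2 and Fezf2. Set against the mean of the WT libraries, the median member was at 0.13, -0.20 and 0.21 on the log2 scale in TG replicates 1, 2 and 3 and at 0.08, 0.03 and -0.13 in WT replicates 1, 2 and 3. The SD between TG mice had a median of 0.25 over the members, against 0.10 over all genes tested, and the SD between WT mice 0.12 against 0.09. It was larger between TG than between WT mice in 6 of 9 members and in 54.8% of all genes.

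The fold changes depended on TG replicate 2 and on other libraries. Their median over the members was -0.04 without TG replicate 3 and -0.01 without WT replicate 3. TG replicate 2 was the lowest TG library in each member, so leaving it out could only raise the log2 fold changes. Without it, 4 members had an unadjusted P value under 0.05 by limma, each higher in TG mice, and these were Slc17a7, Tbr1, Neurod6 and Fezf2. Of the 17607 genes then tested, 5.82% passed that P value, 2.96% with higher values in TG mice. The log2 fold change of Neurod6 was then 0.32 and that of Fezf2 0.35, the median over the members 0.16 and that over all genes -0.00. No member passed an adjusted P value of 0.05, as 0.0114% of all genes did, the lowest being 0.327 for Neurod6. Without TG replicate 1, the library with the choroid plexus markers, the log2 fold change of Slc17a7 was -0.12 and that of Cux2 -0.34 (adjusted P = 0.586 by limma), and the median over the members was 0.03. Cux2 was then the only member at an unadjusted P value under 0.05, against 7.53% of all genes.

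Markers of the striatal spiny neurons moved the other way between libraries. All 14 were the highest of the TG libraries in TG replicate 2, 13 of 14 were the lowest in TG replicate 1, and 12 of 14 were the highest of the WT libraries in WT replicate 3. Their sum was 152603, 210966 and 178288 normalized read counts in TG replicates 1, 2 and 3 and 183073, 190102 and 210763 in WT replicates 1, 2 and 3. The sum over the glutamatergic markers was 39202, 27599 and 38199.7 in the TG libraries, next to 36839, 35225 and 32020 for WT. The library with the most spiny neuron RNA thus had the least glutamatergic marker RNA in each genotype. Over the genotypes, 12 of the 14 spiny neuron markers were lower in TG mice, with a median log2 fold change of -0.13 and 0 at an unadjusted P value under 0.05. That direction rested on TG replicate 1, without which 6 of 14 were lower and the median was 0.01. TG replicate 2 was the highest TG library in all 14, so leaving it out could only lower their log2 fold changes. Without it all 14 were lower and the median was -0.23. At an unadjusted P value under 0.05 there were 12 of them by limma, against 5.82% of all genes. Pde10a, a striatal phosphodiesterase and the one with the highest mean read count, had a log2 fold change of -0.15. The part that the balance of tissues has in the values of the glutamatergic markers was not tested.

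**Figure D4:**
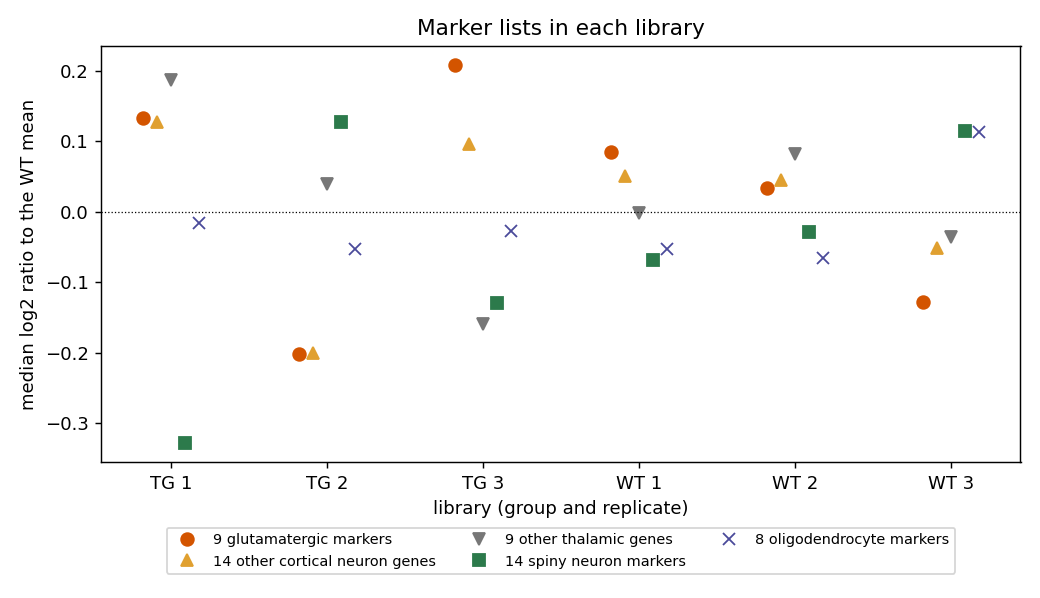
Median log2 ratio to the WT mean of 5 marker lists in each library (TG and WT replicates 1 to 3, in no order). In TG replicate 2 the glutamatergic markers are at -0.20 and the spiny neuron markers at 0.13, and in TG replicate 1 they are at 0.13 and -0.33.

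Glial markers were placed beside these. Of the 8 oligodendrocyte markers, led by the myelin gene Mbp (log2 fold change -0.11), 4 were the lowest of the TG libraries in TG replicate 2 and 7 the highest of the WT libraries in WT replicate 3. Their library medians lay between -0.07 and 0.11 relative to the WT mean, and 0 of 8 passed an unadjusted P value of 0.05. Of the 6 astrocyte markers, all were the highest of the TG libraries in TG replicate 1, and 0 passed that P value, which 4.31% of all genes did. The astrocyte genes with the highest mean read count were Aldoc, with a log2 fold change of -0.07, and Slc1a3, with 0.04. The groups did not overlap in Aldoc, as in 10.1% of all genes. Leaving out TG replicate 1 could only lower the log2 fold changes of the astrocyte markers. All 6 were then lower in TG mice, with a median of -0.10. At an unadjusted P value under 0.05 there was then 1 of them by limma, against 7.53% of all genes. Among the choroid plexus markers, 3 of 8 tested had an unadjusted P value under 0.05, each with a higher value in TG mice, against 1.98% of all genes. These were Kl (log2 fold change 1.36), Sostdc1 (1.68) and Clic6 (0.55), while Ttr, the carrier of thyroid hormone and the most abundant, had 2.51, and each was highest in TG replicate 1. Without that library the log2 fold changes were 0.55 for Kl, 1.04 for Sostdc1, 0.41 for Clic6 and 0.90 for Ttr. Of the 7 choroid plexus markers then tested, 2 were higher at an unadjusted P value under 0.05, Sostdc1 and Clic6, against 2.98% of all genes, and 1 was lower.

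The pattern over libraries was shared by other genes of cortical projection neurons. Of the 14 listed, all of which were tested, 11 were the lowest of the TG libraries in TG replicate 2 and 7 the lowest of the WT libraries in WT replicate 3. By genotype, 8 were higher and 6 lower with a median log2 fold change of 0.02, and 0 were called. Only Lhx2, a LIM homeobox factor of cortical patterning, had an unadjusted P value under 0.05, at -0.24 ± 0.09 (SE) on the log2 scale (limma, adjusted P = 0.971) and 1222, 952 and 1005 normalized read counts in the TG libraries, next to 1316, 1261 and 1156 for WT. Of all genes, 4.31% had such a P value, 2.33% with lower values in TG mice. The TG and WT values of Lhx2 overlapped through TG replicate 1. Without that library its log2 fold change was -0.35. Of the 14 genes, 1 was then higher and 3 were lower at an unadjusted P value under 0.05 by limma, against 7.53% of all genes. Their median log2 fold change was then -0.04. The 2 with the highest mean read count, Syt6, a synaptotagmin of deep layers, and Nrn1, which encodes neuritin, had log2 fold changes of 0.10 and -0.01. Nrn1 was the lowest of all libraries in TG replicate 2, whereas Syt6 was the highest there. Nxph4, a neurexophilin of the deepest layer, was named after its values were seen as the only one of the 14 whose groups did not overlap, against 10.1% of all genes, at 179, 159.6 and 165 in the TG libraries, next to 112, 151 and 154 for WT (adjusted P = 0.971 by limma).

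Thalamic genes beside Slc17a6 did not follow the libraries in that way, and 1 of the 9 tested was the lowest of the TG libraries in TG replicate 2. By genotype, 5 were higher and 4 lower, with a median log2 fold change of 0.07 and 0 at an unadjusted P value under 0.05. That median was -0.065 without TG replicate 2 and -0.02 without TG replicate 1. Rora, a nuclear receptor related to Rorb, and Plekhg1 had the highest mean read counts, with log2 fold changes of -0.04 and -0.06. Of the thalamic developmental factors, Gbx2 had a mean of 11.3 normalized read counts over the 6 libraries and Lhx9 6.36, below the mean of 10 needed for the test.

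Genes of the claustrum, a sheet of glutamatergic neurons beside the striatum, were listed because they lie at the edge of the dissection. Of the 5 listed, 4 were in the table and tested, and Smim32 was not matched. All 4 had lower values in TG mice, with 0 called at an adjusted P value under 0.05 and a median log2 fold change of -0.17, which was -0.11 without TG replicate 1. Ntng2, which encodes netrin-G2, had 879, 827 and 881 normalized read counts in the TG libraries, next to 1124, 1033 and 929 for WT, and differed by -0.25 ± 0.07 (SE) on the log2 scale (limma, adjusted P = 0.971). Lxn, which encodes latexin, had 500.2, 544 and 479 in the TG libraries, next to 584, 559 and 574 for WT, and differed by -0.17 ± 0.07 (SE) on the log2 scale (limma, adjusted P = 0.971). In both genes the groups did not overlap, against 10.1% of all genes. The unadjusted P value was under 0.05 in both, as it was for lower values in 2.33% of all genes. Without TG replicate 1, 3 of the 4 were lower and only Ntng2 passed that P value, against 7.53% of all genes. Without TG replicate 2, all 4 were lower and all 4 passed it by limma, against 5.82% of all genes. The median was then -0.22. TG replicate 2 was the highest TG library in 3 of the 4, where leaving it out could only lower the log2 fold change. Gnb4 and Nr4a2, the 2 with the highest mean read count, had log2 fold changes of -0.08 and -0.16.

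Relatives of the members from the same protein families were compared as well. Of the 10 listed, 7 were tested, 0 had an unadjusted P value under 0.05 and the median log2 fold change was -0.05. The 2 with the highest mean read count were Slc32a1, with a log2 fold change of -0.03, and Cux1, the wider-used relative of Cux2, with -0.07. Tbx21, Neurod4 and Fezf1 were below the mean of 10 normalized read counts.

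The layer markers at opposite ends were also compared within each library, a choice made after their values were seen, so the ratios are given as a description. The ratio of Fezf2 to Cux2 was 0.393, 0.400 and 0.534 in TG replicates 1, 2 and 3 and 0.286, 0.304 and 0.402 in WT replicates 1, 2 and 3. TG replicates 1 and 2 were within the WT range, so the groups overlapped through WT replicate 3. The ratio of Neurod6 to Cux2 was 0.968, 0.975 and 1.23 in the TG libraries, next to 0.729, 0.817 and 0.846 for WT, without overlap. The ratio of Slc17a7 to Neurod6 was 20.5, 18.3 and 19.8 in the TG libraries, next to 24.5, 21.7 and 21.3 for WT, again without overlap. The ratio of Rorb to Cux2 was the only other one of the 36 pairs of members without overlap, which makes 3 pairs or 8.33%. The pairs share members, and 2 of these 3 hold Cux2. The 10.1% of all genes without overlap is for single genes, and no such share was taken for ratios of other genes. TG replicate 2 did not stand apart in the ratios of Fezf2 and Neurod6 to Cux2, in contrast to the levels of the genes.

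**Figure D5:**
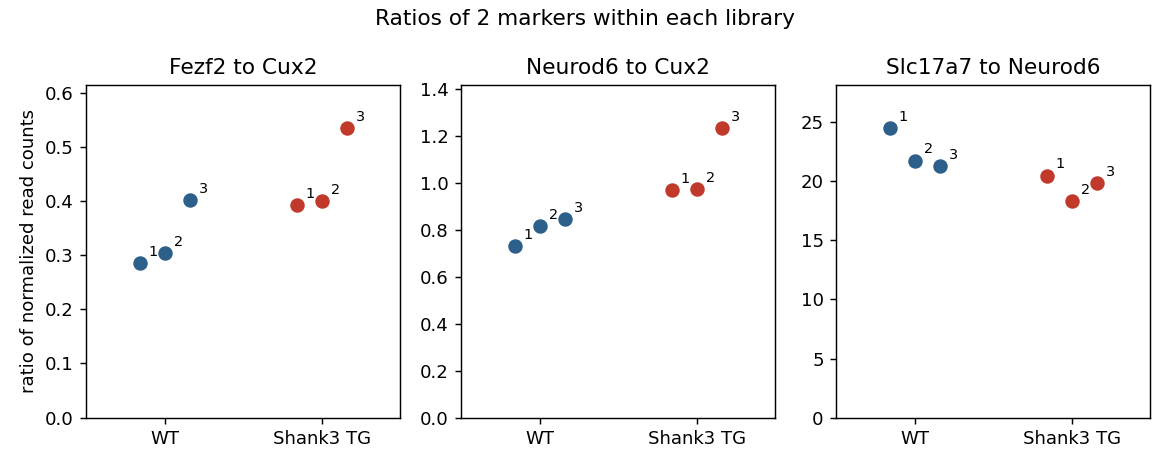
Ratios of the normalized read counts of 2 markers within each library, with numbers for the replicates (blue, WT; red, Shank3 TG). The TG ratios of Neurod6 to Cux2, from 0.968 to 1.23, lie above the WT ratios, and those of Fezf2 to Cux2 overlap.

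The likeness of the members to each other was described over the 6 libraries, which share the genotype groups and their scaling. The Pearson correlation of each member's log2 values with the mean standardised value of the other members was 0.94 for Slc17a7, 0.90 for Tbr1, 0.88 for Rorb, 0.84 for Neurod1, 0.83 for Neurod6, 0.77 for Neurod2 and 0.73 for Slc17a6. It was 0.46 for Fezf2 and 0.29 for Cux2. The layer markers at the ends of the range of fold changes thus followed the common profile least, and Slc17a7 followed it most. Of the genes tested outside all lists, the 10 most like the mean profile of the 9 members, by the same measure over the 6 libraries, had correlations from 0.98 to 1.00. Those reported here are Anxa11, Ndrg3, Sidt1, Ccdc65, Fhl2, Gm15545, Gabbr2, Fam72a and 9330161L09Rik. They are the highest of a search through many genes over only 6 libraries, which by itself yields high correlations. Shared regulation with the members was not tested. Gabbr2, a subunit of the GABA-B receptor, had 9045, 6893 and 8623 normalized read counts in the TG libraries, next to 8316, 8158 and 7278 for WT. Gabbr2 was picked for its likeness to the members, so its low values in TG replicate 2 and WT replicate 3 follow from that choice.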

How the data were processed

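The authors sequenced striatal RNA (TruSeq RNA v2 kit, paired-end) and, per the methods and the submitters' processing notes, used Trimmomatic 0.35, TopHat2 2.1.0 on GRCm38, HTSeq and DESeq2. The deposited values are a signal, namely gene read counts scaled by DESeq2 size factors. Division by the lowest non-zero value of a library returned its read counts, all of them whole within 0.01. Symbols, positions and exon lengths were from GENCODE M21 on GRCm38 (45143 genes matched). All groups are those of the labels, and no library was left out.

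Genes whose mean reached 10 (17605) were tested with limma 3.58.1 (mean-variance trend, log2(value + 1), Benjamini-Hochberg over all genes tested, R 4.3.3). Alternatives were edgeR 4.0.16, DESeq2 1.42.0, limma-voom, TMM or library-total scaling, other filters and pseudocounts, each library left out and the replicate number as a block. The fit was tested on simulated data. The members, the lists and the tests were chosen with earlier results of these data known. Named genes were the members, those of each list at an unadjusted P value under 0.05, the 2 with the highest mean in each list and the 10 most like the members, of which some are not reported here. P values measure the spread between 3 mice per genotype.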

Additional observations from a re-analysis of the deposited data

How the results depend on the processing

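No member was called at an adjusted P value under 0.05 under any alternative run, by limma, edgeR or DESeq2 (0 members with each library left out). At an unadjusted P value under 0.05, where limma gave 0, there was 1 member with no filter on low values and there were 2 by DESeq2, and leaving out 1 library gave 0 to 4 members, the 4 being those without TG replicate 2. Over all genes, 1 was called at an adjusted P value under 0.05, against 2 without TG replicate 2 or TG replicate 3, 5 with no filter on low values and 7 by DESeq2. With 1 library left out, the median log2 fold change over the members ran from -0.04 to 0.16, the ends being those without TG replicate 3 and TG replicate 2. That of the other cortical genes ran from -0.04, without TG replicate 1, to 0.06, of the thalamic genes from -0.065, without TG replicate 2, to 0.11, of the claustrum genes from -0.22 to -0.11 and of the family relatives from -0.12 to -0.01. That of the oligodendrocyte markers ran from -0.062 to 0.042, turning to 0.042 without WT replicate 3, of the astrocyte markers from -0.10 to 0.00, of the spiny neuron markers from -0.23 to 0.01, the latter without TG replicate 1, and of the choroid plexus markers from 0.41, without TG replicate 1, to 2.01. The direction of Slc17a7, at a log2 fold change near 0, turned with edgeR (0.0030) and DESeq2 (0.0037), and with 1 library left out it ran from -0.12 to 0.16. With 1 library left out, direction also turned for Slc17a6 (-0.0022 to 0.14), Tbr1 (-0.043 to 0.20), Neurod1 (-0.19 to 0.19), Neurod2 (-0.19 to 0.11) and Rorb (-0.014 to 0.12), whereas Neurod6 (0.12 to 0.32), Fezf2 (0.12 to 0.35) and Cux2 (-0.34 to -0.14) kept theirs. Same-numbered TG and WT libraries deviated together with correlations of 0.05, 0.02 and 0.09. Those of differently numbered TG and WT libraries ran from -0.12 to 0.08. These values do not settle whether the numbers mark pairs, and the main fit did not take them as pairs. With the replicate block, 0 members were called and 2 had an unadjusted P value under 0.05. These were Cux2 (log2 fold change -0.21) and Fezf2 (0.21), in opposite directions. The share of all genes at that P value was not taken for this fit or for that with no filter on low values. The cause of these shifts was not tested. With 3 mice per genotype the standard errors of the members run from 0.08 for Rorb to 0.21 for Neurod1 on the log2 scale, and Neurod1, at 56 to 105 reads, is also limited by depth.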

Other observations

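Several genes listed above and named after their values were seen stood out in TG replicate 1. Calb2, which encodes calretinin and was listed as a thalamic gene, had 519, 262 and 201 normalized read counts in the TG libraries, next to 197, 267 and 145 for WT. Prkcd had 675, 413 and 330.1 in the TG libraries, next to 365, 419 and 366 for WT. Eomes, a T-box relative of Tbr1, had 47.2, 3.37 and 5.84 in TG mice and between 3.74 and 6.87 in WT mice. Tbx21, a further T-box relative, had 17.2, 2.25 and 0 in TG mice and between 2.29 and 2.95 in WT mice. In each of them TG replicate 1 was the highest of the 6 libraries, and Tbr1 was not highest there. Whether these values go with the choroid plexus markers of that library was not tested.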
